A study of Oryzias latipes with 8 samples.

Results

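The genes described here encode the proteins of synaptic vesicles, of the machinery that fuses them with the membrane, and of the scaffolds and adhesion molecules that organise the synapse. They were chosen by name from the gene symbols that the authors gave to genes listed as changed between sorted cells of the medaka optic tectum, the midbrain region that receives input from the eye. The name patterns cover synaptotagmins, synapsins, SV2 proteins, synaptophysin and synaptogyrin families, SNAREs and their regulators, the RAB3 family, RIM, bassoon and piccolo, neurexins, neuroligins and neurexophilins, and the DLG, DLGAP, SHANK and HOMER scaffolds. The patterns matched 92 genes of the 16957 with counts in all 8 libraries. All 92 passed the filter on low counts and were among the 15640 genes tested. A symbol existed only for a gene the authors had listed as changed in these same libraries, so the number of these genes that differ is a description of a chosen set. Beside the share over all genes tested, the share over the 4658 tested genes with a symbol is therefore given.

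The cells came from 1-month-old medaka (Oryzias latipes) of a pair of transgenic lines and were sorted by green fluorescent protein (GFP). In the wdr12:GFP line, GFP is driven by the promoter of wdr12, a ribosome biogenesis factor expressed in the neuroepithelial cells, the stem cells at the margin of the tectum. The wdr12 GFP+ cells (n = 3 libraries) were set against wdr12 GFP- cells (n = 2), which the study describes as a mixture of amplifying progenitors, neurons and glia. They were also set against GFP+ cells of the ebf3:GFP line (n = 3), in which GFP marks progenitors that have stopped dividing and neurons. The protocol pools tecta (30 are named) and gives no treatment and no further allele for any group. Nothing in the labels says whether replicates came from separate pools of fish, so p-values measure the spread between these libraries, which may be technical.

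As background, a neuron releases transmitter when calcium entering a nerve terminal makes docked vesicles fuse with the membrane at the active zone. Synaptotagmins sense the calcium, a complex of SNARE proteins drives the fusion, and complexins, Munc18 and Munc13 proteins control when it happens. RIM, bassoon and piccolo hold the vesicles at the release site, while neurexins and neuroligins join the terminal to the receiving cell and its scaffold of DLG, DLGAP, SHANK and HOMER proteins. Roles given below are known mainly from mammals. Several family members work outside the synapse in membrane traffic or, for dlgap5, on the mitotic spindle.

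Libraries held between 3497101 and 11580629 counts, the wdr12 GFP- libraries being among the shallower at 3497101 and 5798458. Values are CPM, counts scaled to a library total of 1000000 after TMM normalisation, a scale that does not correct for gene length, so levels are compared between groups and not between genes. Log2 fold changes are given ± SE, with the first-named group on top. Marker genes differed between the sorts. A marker could be counted only where the authors had listed its gene as changed, so the marker counts describe a chosen set. The 28 cycling progenitor symbols looked for matched 23 genes, and the 42 neuron symbols 19. Of genes with a symbol, 29.9% rose and 30.7% fell in wdr12 GFP+ against wdr12 GFP- cells. Against ebf3 GFP+ cells 37.9% of them rose and 31.8% fell. Of all genes tested 9.92% rose and 9.84% fell in the first comparison, and 12.7% and 10.8% in the second. All 23 cycling progenitor markers rose in wdr12 GFP+ cells against each control, with summed levels of 8591 to 16445 CPM in wdr12 GFP+ cells, 656 to 923 CPM in wdr12 GFP- cells and 924 to 1259 CPM in ebf3 GFP+ cells. Of 19 general neuron markers, 14 fell in wdr12 GFP+ cells against wdr12 GFP- cells and 17 fell against ebf3 GFP+ cells, while the summed level was 3403 to 5040 CPM in wdr12 GFP+ cells, 4831 to 6454 CPM in wdr12 GFP- cells and 11862 to 13752 CPM in ebf3 GFP+ cells, and no neuron marker was at 0 in any library. The wdr12 GFP- libraries carried erythrocyte genes at 27164 and 136417 CPM in sum over 13 genes, against 535 to 1204 CPM in wdr12 GFP+ cells and 925 to 1238 CPM in ebf3 GFP+ cells, and 11 of the 13 were lower in wdr12 GFP+ than in wdr12 GFP- cells. Of these, klfd was at 0 in wdr12 GFP+ replicate 1, and chp2 in wdr12 GFP+ replicate 3 and ebf3 GFP+ replicate 1. Oligodendrocyte markers summed to 885 to 1593 CPM in wdr12 GFP+ cells, 3482 to 4846 CPM in wdr12 GFP- cells and 213 to 930 CPM in ebf3 GFP+ cells, where nkx2.2a was at 0 in replicate 2. Microglia and leukocyte markers summed to 974 to 1681 CPM in wdr12 GFP+ cells, 1060 to 1148 CPM in wdr12 GFP- cells and 129 to 319 CPM in ebf3 GFP+ cells, where c1qb was at 0 in replicates 1 and 3 and c1qc in replicate 1. Radial glia markers summed to 4692 to 9648 CPM in wdr12 GFP+ cells, 4343 to 4745 CPM in wdr12 GFP- cells and 2034 to 2753 CPM in ebf3 GFP+ cells, and endothelial and mural markers to 418 to 524 CPM in wdr12 GFP+ cells, 164 to 192 CPM in wdr12 GFP- cells and 137 to 155 CPM in ebf3 GFP+ cells. The part of these other cell types in the results on synaptic genes was not tested. Leaving the erythrocyte genes out of the counts left the numbers of synaptic genes called in wdr12 GFP+ against wdr12 GFP- cells as they were. That fit only drops these genes and rescales the libraries, so it cannot show the part of the erythrocytes.

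Most synaptic genes were at a low level in the wdr12 GFP+ cells. The 92 genes together summed to 2014, 1804 and 3461 CPM in wdr12 GFP+ cells, against 8628 and 9143 CPM in wdr12 GFP- cells and 7082, 7487 and 6321 CPM in ebf3 GFP+ cells. Against wdr12 GFP- cells, 73 of the 92 fell and 4 rose in wdr12 GFP+ cells at an adjusted p under 0.05 (edgeR's quasi-likelihood test, Benjamini-Hochberg adjustment over all genes tested). Among all genes tested 9.84% fell and 9.92% rose, and among tested genes with a symbol 30.7% fell and 29.9% rose. The median log2 fold change was -2.21 over the synaptic genes, 0.05 over all genes tested and 0.31 over genes with a symbol. In bulk libraries, fewer cells of a type and less RNA per cell cannot be told apart. The count of 73 was sensitive to the GFP- libraries, and was lower without either of them. Such a fit leaves 1 library in that group, and calls among all genes tested became fewer as well. The median log2 fold change of the synaptic genes was -2.24 without wdr12 GFP- replicate 1 and -2.15 without wdr12 GFP- replicate 2. Of the 73 genes, 34 passed in every fit that left out 1 library.

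Against ebf3 GFP+ cells, 57 of the 92 fell and 11 rose in wdr12 GFP+ cells. Of all genes tested 10.8% fell and 12.7% rose in that comparison, and of genes with a symbol 31.8% fell and 37.9% rose. The median log2 fold change of the synaptic genes was -1.74, against 0.01 over all genes and 0.28 over genes with a symbol. Of the 57 genes, 43 passed in every fit that left out 1 library, and of the 11, 8 did. The comparisons share the wdr12 GFP+ libraries, so they are not independent of each other. By name, 54 genes fell against both controls and 76 against at least 1, 3 rose against both (dlgap5, rab3da and stxbp3) and 12 against at least 1, and none fell against 1 control and rose against the other. Of the 3 that rose against both, rab3da and stxbp3 lost the call against wdr12 GFP- cells in some fits that left out a wdr12 GFP+ library, and dlgap5 did not. Only UNC13A (2 of 2), cplx3b, lrrtm4l1 and shank3a passed against neither. Such joint counts were not made over all genes tested, so no share stands beside them and they only describe this set.

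In the authors' deposited table of wdr12 GFP+ against wdr12 GFP- cells, 75 of the 92 genes were lower and 5 higher at an adjusted p under 0.05, where 10.3% of all its genes were lower and 9.72% higher. The authors' deposited table against ebf3 GFP+ cells gave 55 lower and 11 higher, where 9.25% of all its genes were lower and 11.7% higher. The symbols that chose the genes come from the authors' sheets of genes called changed in these same comparisons, so nothing is read from these counts.

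**Figure D1:**
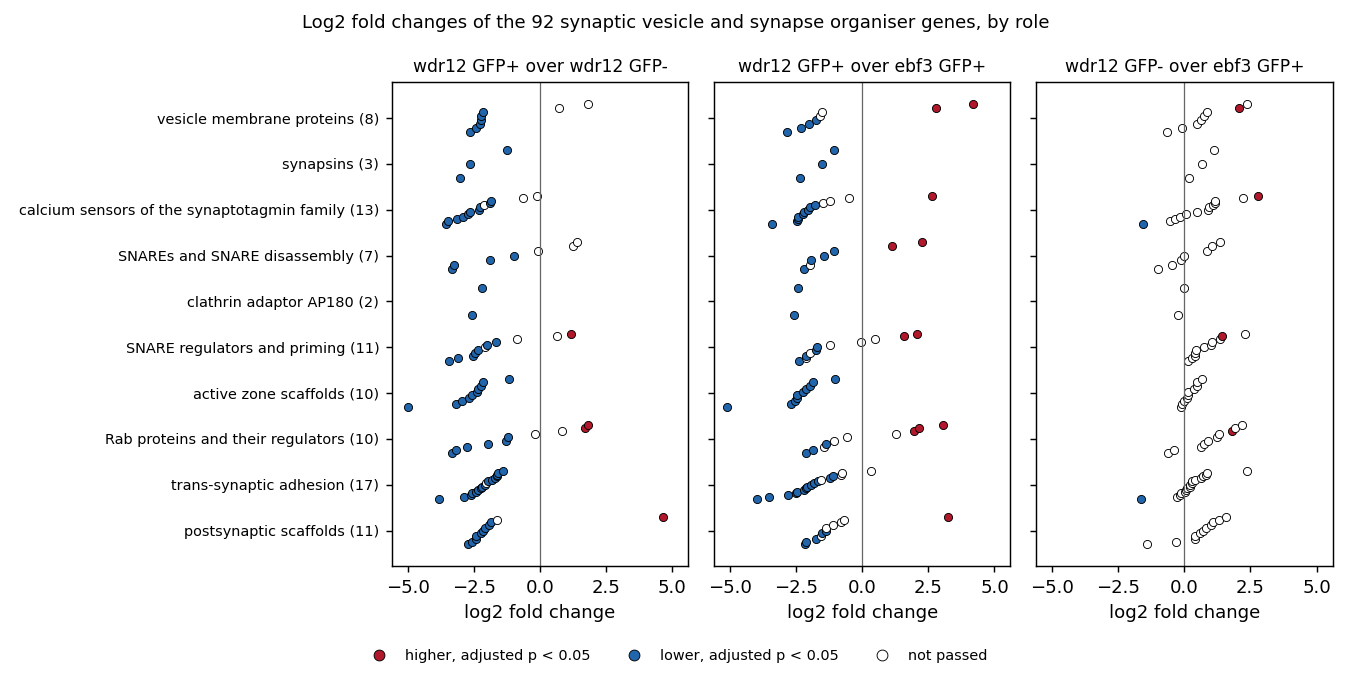
Log2 fold changes (x axis) of the 92 synaptic genes, 1 point per gene, grouped by role (rows, number of genes in brackets) in the 3 comparisons (panels), filled blue or red where the adjusted p is under 0.05. In the left and middle panels most points lie left of 0 with a few red points to the right, and in the right panel 86 of the 92 are open.

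The same was seen library by library. All wdr12 GFP+ libraries lay below all wdr12 GFP- libraries for 78 of the 92 genes and above them for 10, where 24.5% and 25.4% of all genes tested did so, and 41.1% and 44.0% of genes with a symbol. They lay below all ebf3 GFP+ libraries for 63 genes and above them for 12, against 17.8% and 19.9% of all genes tested and 35.9% and 42.3% of genes with a symbol. For 61 genes called lower, each of the 3 wdr12 GFP+ libraries was below each of the 5 others. That count was made only among genes already called lower, which favours such separation. It was not made over all genes tested, so nothing is read from it.

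Proteins of the vesicle membrane gave 6 lower and no higher calls among 8 genes against wdr12 GFP- cells, and 4 lower and 2 higher against ebf3 GFP+ cells. For this role and those below, the shares of genes with a symbol were 30.7% lower and 29.9% higher against wdr12 GFP- cells. Against ebf3 GFP+ cells they were 31.8% and 37.9%. Over all genes tested they were 9.84% and 9.92% in the first comparison, and 10.8% and 12.7% in the second. The gene syngr3a (ENSORLG00000008586), for synaptogyrin 3, had 95.4, 48.2 and 92.5 CPM in wdr12 GFP+ cells, against 352 and 356 CPM in wdr12 GFP- cells and 657, 588 and 451 CPM in ebf3 GFP+ cells. The difference on the log2 scale was -2.17 ± 0.34 (adjusted p = 0.00039) against wdr12 GFP- cells and -2.84 ± 0.32 (adjusted p = 2.45e-05) against ebf3 GFP+ cells. In sypb, a synaptophysin gene, there were 1.73, 7.04 and 9.14 CPM in wdr12 GFP+ cells, against 24.8 and 30.6 CPM in wdr12 GFP- cells and 21.2, 25.4 and 12.8 CPM in ebf3 GFP+ cells. The gene sv2bb, for a vesicle glycoprotein of the SV2 family, stood at 1.84, 7.38 and 14.5 CPM in wdr12 GFP+ cells, against 37.9 and 36.8 CPM in wdr12 GFP- cells and 39.7, 48.3 and 29.5 CPM in ebf3 GFP+ cells. For all of these the wdr12 GFP+ libraries lay below every library of both controls. The differences were -2.22 ± 0.55 (adjusted p = 0.0096) and -1.74 ± 0.51 (adjusted p = 0.0204) for sypb against wdr12 GFP- and against ebf3 GFP+ cells, and -2.24 ± 0.56 (adjusted p = 0.00967) and -2.31 ± 0.52 (adjusted p = 0.00394) for sv2bb. Without wdr12 GFP- replicate 2 the call of sypb against wdr12 GFP- cells was lost (adjusted p up to 0.0837), that of sv2bb was lost without either GFP- replicate (up to 0.0583), and that of sypb against ebf3 GFP+ cells without ebf3 replicate 1 or 2 (up to 0.078). The remaining members called lower against wdr12 GFP- cells were syngr3b and both copies of SV2A, with log2 fold changes of -2.64, -2.27 and -2.42, each lost without 1 GFP- library (adjusted p up to 0.108, 0.181 and 0.145).

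A pair of the same families moved the other way. SYNGR2 (1 of 2), whose mammalian counterpart cellugyrin is found outside neurons, had 23.8, 16.3 and 22.9 CPM in wdr12 GFP+ cells, against 7.40 and 4.64 CPM in wdr12 GFP- cells and 1.65, 0 and 1.83 CPM in ebf3 GFP+ cells. The synaptophysin-like gene sypl2b, known in mammals as mitsugumin of muscle, had 40.1, 21.9 and 29.1 CPM in wdr12 GFP+ cells, against 18.9 and 18.4 CPM in wdr12 GFP- cells and 4.55, 2.41 and 6.33 CPM in ebf3 GFP+ cells. In both genes the lowest wdr12 GFP+ library was above the highest library of each control. Relative to ebf3 GFP+ cells they rose by 4.18 ± 0.75 (adjusted p = 0.000767) and 2.78 ± 0.43 (adjusted p = 0.000228) on the log2 scale. Relative to wdr12 GFP- cells the values of 1.81 ± 0.77 (adjusted p = 0.118) and 0.70 ± 0.45 (adjusted p = 0.332) did not pass.

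The 3 synapsin genes, whose proteins tether vesicles to each other and to actin, all fell against both controls. The copy syn2a had 8.67, 8.65 and 26.8 CPM in wdr12 GFP+ cells, against 125 and 111 CPM in wdr12 GFP- cells and 76.5, 92.3 and 53.4 CPM in ebf3 GFP+ cells. SYN2 (1 of 2) had 6.29, 6.46 and 22.9 CPM in wdr12 GFP+ cells, against 68.8 and 79.2 CPM in wdr12 GFP- cells and 36.1, 24.2 and 42.6 CPM in ebf3 GFP+ cells. SYN3 was closest between groups at 11.3, 8.77 and 20.6 CPM in wdr12 GFP+ cells, against 33.1 and 30.9 CPM in wdr12 GFP- cells and 26.3, 30.5 and 27.1 CPM in ebf3 GFP+ cells. The groups did not overlap in any of them. Log2 fold changes against wdr12 GFP- cells were -3.01 ± 0.45 (adjusted p = 0.000303) for syn2a, -2.64 ± 0.49 (adjusted p = 0.00151) for SYN2 (1 of 2) and -1.24 ± 0.39 (adjusted p = 0.0362) for SYN3. Against ebf3 GFP+ cells they were -2.34 ± 0.42 (adjusted p = 0.000701), -1.53 ± 0.45 (adjusted p = 0.0212) and -1.05 ± 0.36 (adjusted p = 0.0456) in that order. SYN3 stayed near the threshold: its call against wdr12 GFP- cells was lost in 5 of 8 fits that left out 1 library (adjusted p up to 0.198) and that against ebf3 GFP+ cells in 7 of 8 (up to 0.132), and SYN2 (1 of 2) lost its call against ebf3 GFP+ cells in 4 of 8 (up to 0.0717).

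Of 13 genes of the synaptotagmin family, the calcium sensors of release and their relatives, 10 fell against wdr12 GFP- cells and 9 against ebf3 GFP+ cells. The fast sensor gene syt2a had 16.7, 18.6 and 57.4 CPM in wdr12 GFP+ cells, against 263 and 286 CPM in wdr12 GFP- cells and 150, 147 and 141 CPM in ebf3 GFP+ cells. For syt7b, a slower high-affinity sensor, the libraries had 7.91, 5.19 and 15.1 CPM in wdr12 GFP+ cells, against 46.8 and 43.4 CPM in wdr12 GFP- cells and 22.3, 40.7 and 34.5 CPM in ebf3 GFP+ cells. For syt9a the values were 0.108, 2.88 and 8.88 CPM in wdr12 GFP+ cells, against 39.2 and 53.4 CPM in wdr12 GFP- cells and 19.6, 32.9 and 10.5 CPM in ebf3 GFP+ cells. In each the highest wdr12 GFP+ library, always replicate 3, was still below the lowest control library, by a narrow margin for syt9a against ebf3 GFP+ cells. Against wdr12 GFP- cells the log2 fold changes were -3.15 ± 0.44 (adjusted p = 0.0002) for syt2a, -2.27 ± 0.43 (adjusted p = 0.00183) for syt7b and -3.56 ± 0.82 (adjusted p = 0.00618) for syt9a. The corresponding values against ebf3 GFP+ cells were -2.25 ± 0.40 (adjusted p = 0.000752), -1.79 ± 0.40 (adjusted p = 0.00383) and -2.42 ± 0.76 (adjusted p = 0.0292), the last of which was lost without wdr12 GFP+ replicate 2, ebf3 replicate 1 or ebf3 replicate 2 (up to 0.121). The other copy, syt9b, had 12.4, 14.2 and 24.8 CPM in wdr12 GFP+ cells, against 30.5 and 22.7 CPM in wdr12 GFP- cells and 89.6, 82.4 and 62.1 CPM in ebf3 GFP+ cells. The wdr12 GFP+ libraries overlapped the wdr12 GFP- libraries for syt9b, and its log2 fold change was -0.63 ± 0.36 (adjusted p = 0.271) there and -2.19 ± 0.34 (adjusted p = 0.000228) against ebf3 GFP+ cells.

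SYTL1, a synaptotagmin-like effector of RAB27 in secretory cells, was the only gene of the family called higher, and only against ebf3 GFP+ cells. It had 50.0, 21.1 and 60.6 CPM in wdr12 GFP+ cells, against 39.6 and 56.7 CPM in wdr12 GFP- cells and 3.03, 11 and 7.16 CPM in ebf3 GFP+ cells. The wdr12 sorts overlapped each other and both lay above the ebf3 GFP+ libraries. The log2 fold change of SYTL1 was 2.63 ± 0.48 (adjusted p = 0.000815) against ebf3 GFP+ cells and -0.13 ± 0.49 (adjusted p = 0.907) against wdr12 GFP- cells. The direct comparison of wdr12 GFP- with ebf3 GFP+ cells gave 2.77 ± 0.51 (adjusted p = 0.00585).

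**Figure D2:**
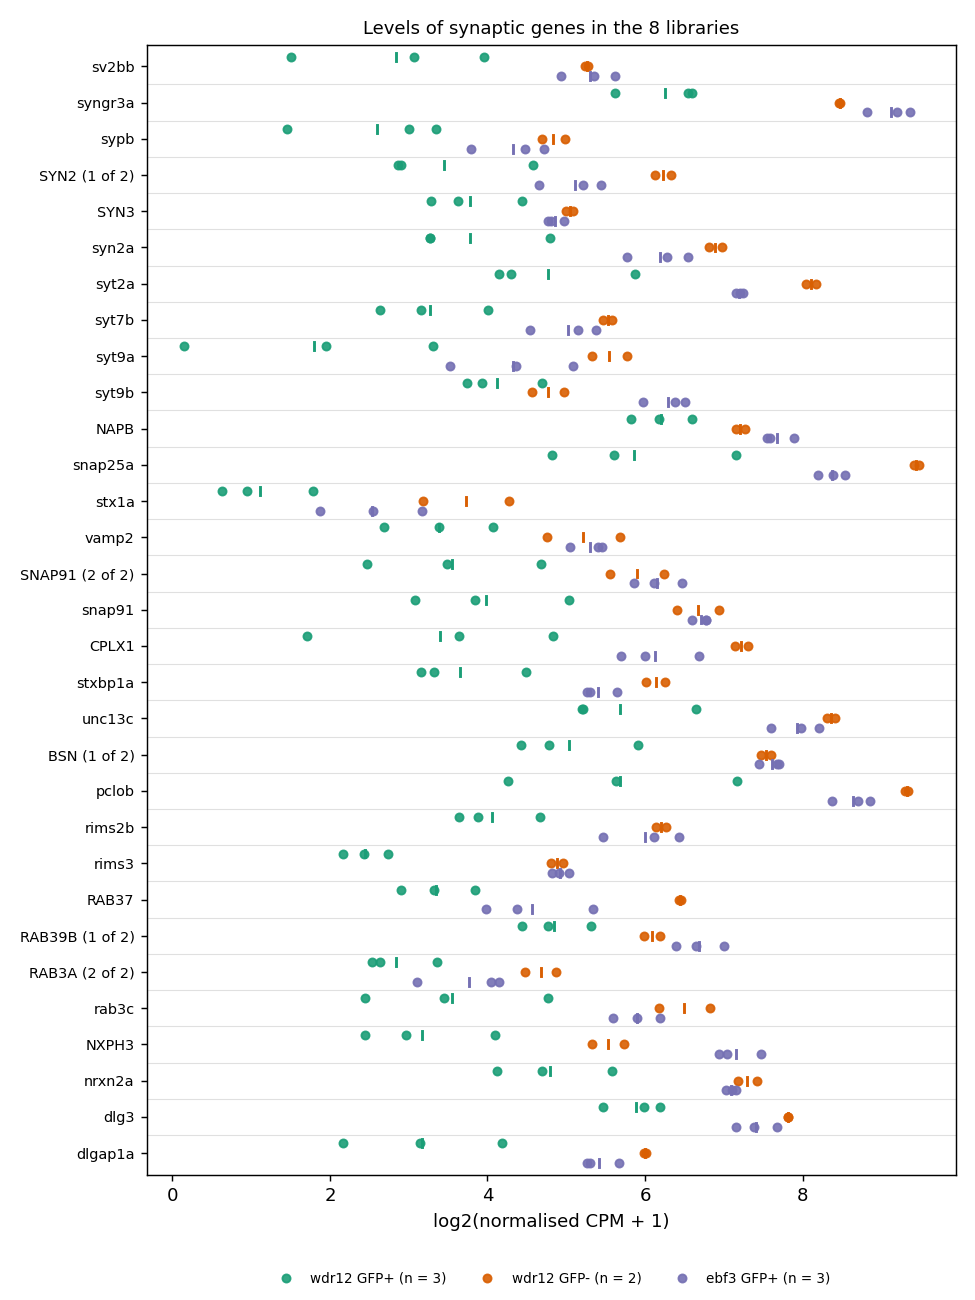
Levels of the 31 synaptic genes that are described with every library's value and were not called higher in wdr12 GFP+ cells (rows) on the x axis as log2(CPM + 1), with 1 point per library coloured by group and a vertical tick at the group mean of these log values. In 29 rows the wdr12 GFP+ points lie to the left of the points of both controls. Most rows were chosen by small p-values in these comparisons, which favours such separation, so nothing is read from the 29. For snap25a the values are 27.3 to 141 CPM in wdr12 GFP+ cells against 293 CPM or more in each control. The gene syt9b overlaps wdr12 GFP- cells, and RAB3A (2 of 2) overlaps ebf3 GFP+ cells.

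Among the SNAREs, genes of the neuronal fusion complex fell against wdr12 GFP- cells, while a pair that serves general membrane traffic rose against ebf3 GFP+ cells. The gene snap25a (ENSORLG00000016124), for the SNARE that is anchored in the plasma membrane of terminals, had 27.3, 47.6 and 141 CPM in wdr12 GFP+ cells, against 679 and 711 CPM in wdr12 GFP- cells and 371, 335 and 293 CPM in ebf3 GFP+ cells. The vesicle SNARE gene vamp2 had 5.42, 9.46 and 15.8 CPM in wdr12 GFP+ cells, against 25.9 and 50.5 CPM in wdr12 GFP- cells and 41.5, 42.8 and 32 CPM in ebf3 GFP+ cells. For stx1a, the partner of SNAP25 in the plasma membrane, values were 0.542, 0.923 and 2.44 CPM in wdr12 GFP+ cells, against 8.05 and 18.4 CPM in wdr12 GFP- cells and 4.82, 8.02 and 2.66 CPM in ebf3 GFP+ cells. No wdr12 GFP+ library reached a control library in these genes, although for stx1a the margin to the ebf3 GFP+ libraries was 2.44 against 2.66 CPM. The log2 fold change of snap25a was -3.27 ± 0.50 (adjusted p = 0.00036) against wdr12 GFP- cells, which is 9.65-fold lower, and -2.21 ± 0.46 (adjusted p = 0.00217) against ebf3 GFP+ cells. Those of vamp2 were -1.90 ± 0.44 (adjusted p = 0.00621) and -1.92 ± 0.41 (adjusted p = 0.00259), and those of stx1a -3.34 ± 0.78 (adjusted p = 0.00691) and -1.99 ± 0.72 (adjusted p = 0.0587), the last not passing. NAPB, the brain form of the SNAP cofactor that takes used SNARE complexes apart, had 95.5, 55.8 and 71.3 CPM in wdr12 GFP+ cells, against 153 and 141 CPM in wdr12 GFP- cells and 236, 187 and 192 CPM in ebf3 GFP+ cells, with log2 fold changes of -0.99 ± 0.30 (adjusted p = 0.0297) and -1.46 ± 0.28 (adjusted p = 0.00112). Relative to wdr12 GFP- cells, vamp2 and stx1a lost their calls without wdr12 GFP- replicate 2 (up to 0.156 and 0.169), and NAPB lost it without wdr12 GFP+ replicate 2 or either GFP- replicate (up to 0.186).

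The plasma membrane SNARE gene stx4, which serves constitutive secretion, had 12.5, 14.2 and 15.8 CPM in wdr12 GFP+ cells, against 8.49 and 2.40 CPM in wdr12 GFP- cells and 5.24, 2.27 and 1.33 CPM in ebf3 GFP+ cells. For stx7l, related to the endosomal syntaxin 7, the libraries had 54.3, 31.8 and 33.1 CPM in wdr12 GFP+ cells, against 22.6 and 10.8 CPM in wdr12 GFP- cells and 19.4, 13.1 and 21.6 CPM in ebf3 GFP+ cells. All wdr12 GFP+ libraries were above all control libraries in both genes. They rose against ebf3 GFP+ cells by 2.25 ± 0.62 (adjusted p = 0.0145) and 1.14 ± 0.37 (adjusted p = 0.0375), while against wdr12 GFP- cells 1.39 ± 0.69 (adjusted p = 0.194) and 1.25 ± 0.43 (adjusted p = 0.0546) did not pass. The call of stx4 was lost without ebf3 replicate 2 (up to 0.0687), and that of stx7l in 4 of 8 fits that left out 1 library (up to 0.169). The Golgi and endosome SNARE stx6 fell against ebf3 GFP+ cells, with -1.08 ± 0.31 (adjusted p = 0.0185), a call lost in 3 of 8 fits that left out 1 library (up to 0.0907), and had -0.08 ± 0.34 (adjusted p = 0.923) against wdr12 GFP- cells.

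AP180, a clathrin adaptor that retrieves vesicle proteins after fusion, is encoded by a pair of copies. The copy snap91 had 7.48, 13.3 and 31.7 CPM in wdr12 GFP+ cells, against 84 and 122 CPM in wdr12 GFP- cells and 108, 108 and 95.9 CPM in ebf3 GFP+ cells. SNAP91 (2 of 2) had 4.55, 10.2 and 24.7 CPM in wdr12 GFP+ cells, against 46.1 and 74.7 CPM in wdr12 GFP- cells and 87.6, 68.1 and 57.1 CPM in ebf3 GFP+ cells. Both lay below every control library, with log2 fold changes of -2.56 ± 0.45 (adjusted p = 0.001) and -2.21 ± 0.51 (adjusted p = 0.00594) against wdr12 GFP- cells and -2.58 ± 0.42 (adjusted p = 0.000389) and -2.44 ± 0.48 (adjusted p = 0.00141) against ebf3 GFP+ cells. Copies that the symbols number as (n of m) may share reads, so the split of counts between them is uncertain. Without wdr12 GFP- replicate 2, SNAP91 (2 of 2) did not pass against wdr12 GFP- cells (up to 0.0826).

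Regulators of SNARE assembly and priming gave 7 lower calls and 1 higher call among 11 genes against wdr12 GFP- cells, and 4 lower and 2 higher against ebf3 GFP+ cells. The 36.4% lower against ebf3 GFP+ cells is near the 31.8% of genes with a symbol, so that count is not particular to the role. CPLX1, a complexin that clamps the SNARE complex until calcium arrives, had 2.28, 11.5 and 27.5 CPM in wdr12 GFP+ cells, against 140 and 157 CPM in wdr12 GFP- cells and 62.8, 102 and 50.8 CPM in ebf3 GFP+ cells. The neuronal Munc18 gene stxbp1a had 7.91, 9 and 21.4 CPM in wdr12 GFP+ cells, against 63.5 and 75.6 CPM in wdr12 GFP- cells and 38.4, 49 and 37.5 CPM in ebf3 GFP+ cells. For the Munc13 priming factor unc13c the values were 35.9, 36.1 and 99.2 CPM in wdr12 GFP+ cells, against 341 and 316 CPM in wdr12 GFP- cells and 193, 296 and 251 CPM in ebf3 GFP+ cells. Each was lower in every wdr12 GFP+ library than in any control library. CPLX1 had log2 fold changes of -3.43 ± 0.63 (adjusted p = 0.00129) and -2.39 ± 0.57 (adjusted p = 0.00622) against wdr12 GFP- and ebf3 GFP+ cells. For stxbp1a they were -2.45 ± 0.41 (adjusted p = 0.000667) and -1.71 ± 0.38 (adjusted p = 0.0033), and for unc13c -2.53 ± 0.41 (adjusted p = 0.000554) and -2.11 ± 0.38 (adjusted p = 0.000777). All of these passed in every fit that left out 1 library.

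The other Munc18 genes of the set, whose mammalian products serve epithelial, blood and general secretion, rose in wdr12 GFP+ cells against ebf3 GFP+ cells. For stxbp2 the libraries had 46.4, 32.4 and 54.6 CPM in wdr12 GFP+ cells, against 25.7 and 31.4 CPM in wdr12 GFP- cells and 11, 6.82 and 14 CPM in ebf3 GFP+ cells. For stxbp3 they had 155, 96.4 and 101 CPM in wdr12 GFP+ cells, against 53.3 and 51.9 CPM in wdr12 GFP- cells and 40.4, 23.1 and 54.9 CPM in ebf3 GFP+ cells. The stxbp3 libraries did not overlap between wdr12 GFP+ cells and the controls, and those of stxbp2 were separated from wdr12 GFP- cells only by 32.4 against 31.4 CPM. The log2 fold changes of stxbp3 were 1.16 ± 0.38 (adjusted p = 0.0417) and 1.58 ± 0.33 (adjusted p = 0.00253) against wdr12 GFP- and ebf3 GFP+ cells, the call against wdr12 GFP- cells being lost in 5 of 8 fits that left out 1 library (up to 0.23). Those of stxbp2 were 0.64 ± 0.39 (adjusted p = 0.307), which did not pass, and 2.07 ± 0.36 (adjusted p = 0.000581). The Munc18 genes therefore went in both directions in the same sort, stxbp1a lower and stxbp3 higher than in each control.

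All 10 of 10 active zone scaffold genes fell against each control, as did the synapsin and AP180 genes. The small RIM gene rims3 had 3.47, 4.38 and 5.66 CPM in wdr12 GFP+ cells, against 27 and 30.2 CPM in wdr12 GFP- cells and 31.7, 28.9 and 27.3 CPM in ebf3 GFP+ cells. For rims2b, a RIM that links vesicles to calcium channels, values were 11.4, 13.7 and 24.4 CPM in wdr12 GFP+ cells, against 75.7 and 69.4 CPM in wdr12 GFP- cells and 68.1, 85.3 and 43.4 CPM in ebf3 GFP+ cells. The bassoon copy BSN (1 of 2) had 20.4, 26.6 and 59.1 CPM in wdr12 GFP+ cells, against 193 and 177 CPM in wdr12 GFP- cells and 207, 203 and 174 CPM in ebf3 GFP+ cells. The piccolo copy pclob had 18.2, 48.4 and 143 CPM in wdr12 GFP+ cells, against 648 and 630 CPM in wdr12 GFP- cells and 417, 463 and 331 CPM in ebf3 GFP+ cells. No wdr12 GFP+ library reached a control library in these genes. Against wdr12 GFP- cells the log2 fold changes were -2.67 ± 0.38 (adjusted p = 0.000215) for rims3, -2.14 ± 0.38 (adjusted p = 0.00109) for rims2b, -2.39 ± 0.38 (adjusted p = 0.000527) for BSN (1 of 2) and -3.19 ± 0.56 (adjusted p = 0.00105) for pclob. Relative to ebf3 GFP+ cells they were -2.70 ± 0.35 (adjusted p = 6.76e-05), -1.99 ± 0.35 (adjusted p = 0.000683), -2.46 ± 0.36 (adjusted p = 0.000154) and -2.53 ± 0.52 (adjusted p = 0.00217). These calls passed in every fit that left out 1 library.

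The sum over the 10 active zone genes was 143, 262 and 653 CPM in wdr12 GFP+ cells, against 2294 and 2345 CPM in wdr12 GFP- cells and 1759, 1980 and 1506 CPM in ebf3 GFP+ cells. Over the other active zone genes the log2 fold change against wdr12 GFP- cells ran from -1.16 for RIMS1 (2 of 2) to -2.94 for BSN (2 of 2), apart from RIMS4. RIMS4 was barely counted, with 0, 0 and 2 counts in wdr12 GFP+ cells, 17 and 15 counts in wdr12 GFP- cells and 3, 55 and 14 counts in ebf3 GFP+ cells, and no fold is given for it. The calls of RIMS1 (2 of 2), RIMS4 and rims1a against wdr12 GFP- cells were lost when 1 GFP- library or, for the first pair, some other library was left out (up to 0.194, 0.161 and 0.0524), and those of RIMS1 (2 of 2) and RIMS4 against ebf3 GFP+ cells were lost in 6 and 3 of 8 such fits (up to 0.101 and 0.184).

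**Figure D3:**
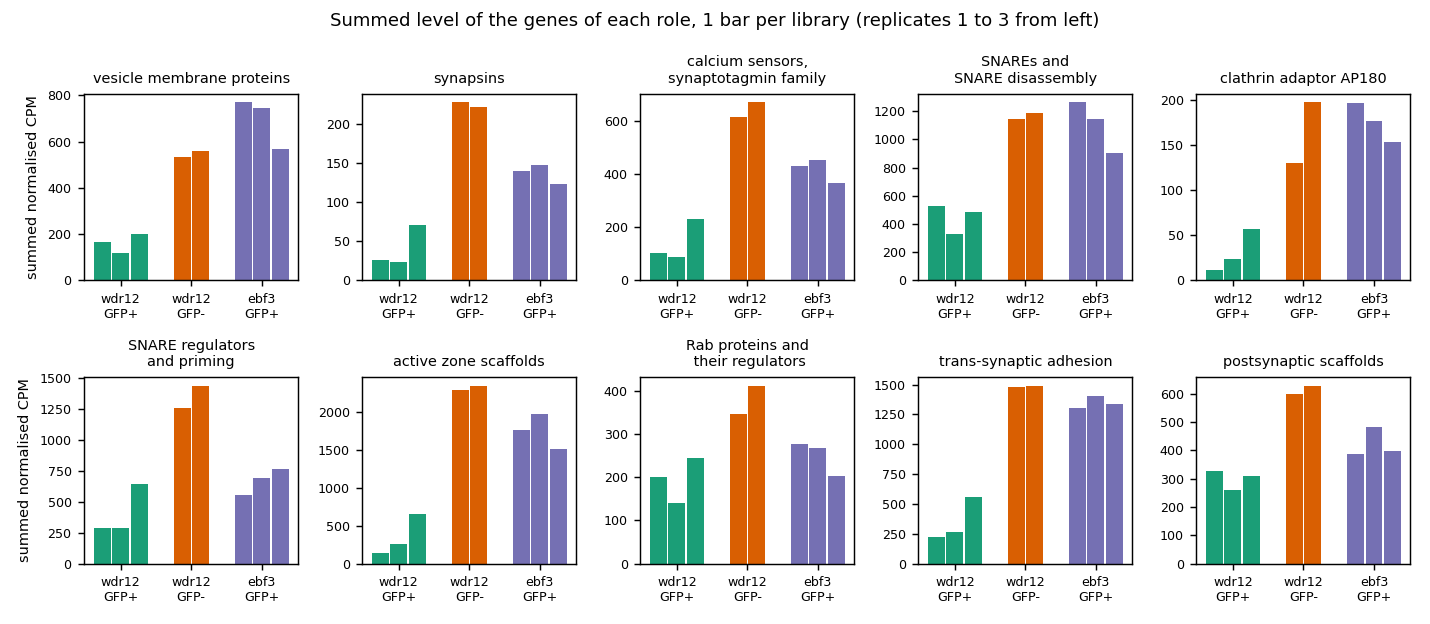
Summed CPM (y axis, from 0) of the genes of each of 10 roles, 1 panel per role and 1 bar per library. The bars of wdr12 GFP+ cells are below all bars of wdr12 GFP- cells in each panel. In the panels of Rab proteins and of SNARE regulators only their replicate 3 bar reaches into the range of the ebf3 GFP+ bars. In the SNARE regulator panel stxbp6l makes up 235 of the 645 CPM of that bar, and 61.6, 59.4 and 184 CPM of the ebf3 GFP+ bars. The postsynaptic scaffold panel includes the spindle gene dlgap5. It makes up 234, 138 and 102 CPM of the 326, 260 and 310 CPM of the wdr12 GFP+ bars there, and 3.70 to 25.3 CPM of the control bars.

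The RAB proteins and their regulators gave 6 lower and 2 higher calls of 10 against wdr12 GFP- cells and 3 lower and 3 higher against ebf3 GFP+ cells. Of genes with a symbol, 30.7% fell and 29.9% rose against wdr12 GFP- cells. Against ebf3 GFP+ cells 31.8% of them fell and 37.9% rose, near the shares of this role, so the mix there is not particular to it. The name pattern for RAB3 also takes in RAB31, RAB34, RAB37 and RAB39, which are other RAB proteins. The synaptic vesicle gene rab3c had 4.44, 9.92 and 26.2 CPM in wdr12 GFP+ cells, against 71.6 and 112 CPM in wdr12 GFP- cells and 58.8, 72.1 and 47.4 CPM in ebf3 GFP+ cells. RAB3A (2 of 2), the main RAB3 of terminals in mammals, had 4.77, 5.19 and 9.26 CPM in wdr12 GFP+ cells, against 21.3 and 28.3 CPM in wdr12 GFP- cells and 16.7, 7.62 and 15.5 CPM in ebf3 GFP+ cells. RAB37, a RAB of secretory granules, had 8.99, 6.46 and 13.3 CPM in wdr12 GFP+ cells, against 87 and 85 CPM in wdr12 GFP- cells and 19.7, 39.6 and 14.8 CPM in ebf3 GFP+ cells. RAB39B (1 of 2) had 26.3, 20.6 and 38.7 CPM in wdr12 GFP+ cells, against 71.8 and 62.3 CPM in wdr12 GFP- cells and 127, 99 and 83.2 CPM in ebf3 GFP+ cells. The wdr12 GFP+ libraries lay below all control libraries for rab3c, RAB37 and RAB39B (1 of 2), and for RAB3A (2 of 2) they lay below the wdr12 GFP- libraries and overlapped the ebf3 GFP+ libraries. Relative to wdr12 GFP- cells the log2 fold changes were -2.76 ± 0.52 (adjusted p = 0.00161), -1.96 ± 0.48 (adjusted p = 0.00916), -3.17 ± 0.43 (adjusted p = 0.000177) and -1.23 ± 0.33 (adjusted p = 0.0152) in the same order. Against ebf3 GFP+ cells they were -2.14 ± 0.48 (adjusted p = 0.00396), -1.05 ± 0.44 (adjusted p = 0.106), which did not pass, -1.37 ± 0.39 (adjusted p = 0.0184) and -1.85 ± 0.31 (adjusted p = 0.000413). Calls lost when a library was left out were those of RAB3A (2 of 2) without wdr12 GFP- replicate 2 (up to 0.115), RAB39B (1 of 2) against wdr12 GFP- cells without either GFP- replicate (up to 0.133), and RAB37 against ebf3 GFP+ cells without wdr12 GFP+ replicate 2 or ebf3 replicate 2 (up to 0.129).

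The RAB3 gene that was higher was rab3da, a RAB3 of secretory granules outside the nervous system in mammals. It had 89.8, 26.2 and 58.9 CPM in wdr12 GFP+ cells, against 15.2 and 17.9 CPM in wdr12 GFP- cells and 5.24, 5.35 and 10.8 CPM in ebf3 GFP+ cells. The groups did not overlap, and the log2 fold changes were 1.82 ± 0.51 (adjusted p = 0.0186) against wdr12 GFP- cells and 3.04 ± 0.46 (adjusted p = 0.000202) against ebf3 GFP+ cells, the first of them lost without wdr12 GFP+ replicate 1 or either GFP- replicate (up to 0.164). For rab34a, whose mammalian counterpart takes part in forming the primary cilium, the values were 13.2, 16.4 and 28.8 CPM in wdr12 GFP+ cells, against 7.40 and 4.81 CPM in wdr12 GFP- cells and 7.99, 4.95 and 11 CPM in ebf3 GFP+ cells. It rose against wdr12 GFP- cells by 1.68 ± 0.55 (adjusted p = 0.0432), a call lost in 6 of 8 fits that left out 1 library (up to 0.317), and had 1.29 ± 0.46 (adjusted p = 0.0576) against ebf3 GFP+ cells.

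RAB3IL1, an exchange factor of RAB proteins, had 32.5, 35.8 and 31 CPM in wdr12 GFP+ cells, against 20.5 and 17.2 CPM in wdr12 GFP- cells and 11, 10.3 and 1.17 CPM in ebf3 GFP+ cells. RAB31, a RAB of the Golgi and endosomes, had 10.5, 7.27 and 23.3 CPM in wdr12 GFP+ cells, against 11.1 and 20.4 CPM in wdr12 GFP- cells and 5.37, 3.88 and 1.17 CPM in ebf3 GFP+ cells. Both were above every ebf3 GFP+ library, and RAB31 overlapped wdr12 GFP- cells. Relative to ebf3 GFP+ cells they rose by 2.13 ± 0.54 (adjusted p = 0.00873) and 1.96 ± 0.60 (adjusted p = 0.0258), the call of RAB31 being lost without wdr12 GFP+ replicate 3, ebf3 replicate 2 or ebf3 replicate 3 (up to 0.163). Against wdr12 GFP- cells RAB3IL1 had 0.82 ± 0.59 (adjusted p = 0.407) and RAB31 -0.21 ± 0.63 (adjusted p = 0.886).

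**Figure D4:**
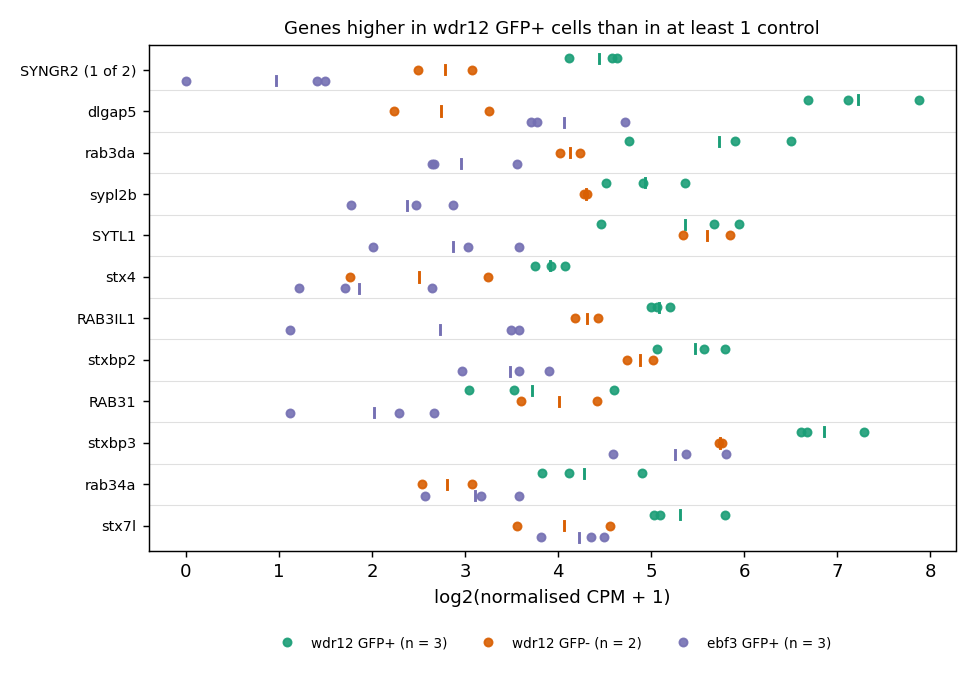
Levels of the 12 genes called higher in wdr12 GFP+ cells against at least 1 control, on the x axis as log2(CPM + 1), with 1 point per library and a vertical tick at the group mean of these log values. The wdr12 GFP+ points lie right of the ebf3 GFP+ points in every row, and overlap the wdr12 GFP- points for SYTL1 and RAB31.

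Trans-synaptic adhesion genes were lower in 16 of 17 cases against wdr12 GFP- cells and in 13 of 17 against ebf3 GFP+ cells, and none rose. Neurexins are presynaptic receptors that bind neuroligins and LRRTM proteins across the cleft. The neurexin gene nrxn2a had 16.4, 24.8 and 46.7 CPM in wdr12 GFP+ cells, against 144 and 170 CPM in wdr12 GFP- cells and 141, 137 and 129 CPM in ebf3 GFP+ cells. All wdr12 GFP+ libraries were below all others for nrxn2a. Its log2 fold change was -2.43 ± 0.37 (adjusted p = 0.00036) against wdr12 GFP- cells and -2.21 ± 0.35 (adjusted p = 0.000257) against ebf3 GFP+ cells.

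Another 8 neurexin and neuroligin genes all fell against wdr12 GFP- cells, with log2 fold changes between -1.41 for NLGN3A and -2.62 for NLGN2. Relative to ebf3 GFP+ cells 7 of the 8 fell, nrxn3a being the exception. Neuroligins are the postsynaptic partners of neurexins. Calls against wdr12 GFP- cells were lost on leaving out 1 library for NLGN3A, NLGN3B and nlgn2a (up to 0.207, 0.126 and 0.408), and against ebf3 GFP+ cells for NLGN3A (up to 0.109).

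Among the adhesion genes, NXPH3, for a secreted neurexophilin that binds neurexin, stood apart by its level in the ebf3 sort. It had 4.44, 6.81 and 16.1 CPM in wdr12 GFP+ cells, against 39.2 and 52.4 CPM in wdr12 GFP- cells and 131, 177 and 122 CPM in ebf3 GFP+ cells. The 3 groups did not overlap and were ordered with ebf3 GFP+ cells highest. In other roles syngr3a, RAB39B (1 of 2) and NAPB had the same order. On the log2 scale NXPH3 differed by -2.34 ± 0.43 (adjusted p = 0.00148) against wdr12 GFP- cells and -3.98 ± 0.43 (adjusted p = 1.92e-05) against ebf3 GFP+ cells, 15.8-fold lower. Of the other adhesion genes, the 4 not passing against ebf3 GFP+ cells were LRRTM4 (1 of 4), lrrtm2, lrrtm4l1 and nrxn3a, with log2 fold changes of -1.55, -0.75, 0.33 and -0.80. NXPH4 was thinly counted, with 2, 0 and 9 counts in wdr12 GFP+ cells, 21 and 50 counts in wdr12 GFP- cells and 57, 24 and 30 counts in ebf3 GFP+ cells.

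Postsynaptic scaffolds gave 9 lower calls of 11 against wdr12 GFP- cells and 5 of 11 against ebf3 GFP+ cells. The 1 higher call in each comparison was dlgap5, described below. Of genes with a symbol 30.7% fell against wdr12 GFP- cells and 31.8% against ebf3 GFP+ cells. With 11 genes, the 45.5% lower against ebf3 GFP+ cells is not far above that share, so nothing is read from it. The DLG scaffold gene dlg3 had 62.2, 43.1 and 72.3 CPM in wdr12 GFP+ cells, against 224 and 225 CPM in wdr12 GFP- cells and 166, 204 and 141 CPM in ebf3 GFP+ cells. The scaffold gene dlgap1a, whose product bridges DLG and SHANK proteins, had 3.47, 7.84 and 17.2 CPM in wdr12 GFP+ cells, against 63.5 and 62.7 CPM in wdr12 GFP- cells and 38.3, 49.8 and 37.5 CPM in ebf3 GFP+ cells. In both the wdr12 GFP+ libraries were below all control libraries, with log2 fold changes against wdr12 GFP- cells of -1.92 ± 0.31 (adjusted p = 0.000495) and -2.73 ± 0.48 (adjusted p = 0.00103). Against ebf3 GFP+ cells they were -1.53 ± 0.28 (adjusted p = 0.000944) and -2.14 ± 0.45 (adjusted p = 0.0023). Among members not passing against ebf3 GFP+ cells, dlgap2a, dlgap2b, dlgap4b, homer1b and shank3a had log2 fold changes of -1.55, -1.09, -1.35, -0.69 and -0.82.

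Relative to wdr12 GFP- cells the largest rise of the set was in a gene that shares the DLGAP name and not the synaptic role. The gene dlgap5 (ENSORLG00000003444) encodes a spindle protein of dividing cells, known in mammals as HURP. It had 234, 138 and 102 CPM in wdr12 GFP+ cells, against 3.70 and 8.59 CPM in wdr12 GFP- cells and 12.1, 12.7 and 25.3 CPM in ebf3 GFP+ cells. The lowest wdr12 GFP+ library was above the highest control library, at 102 against 25.3 CPM. Its log2 fold change was 4.66 ± 0.55 (adjusted p = 7.95e-05), or 25.3-fold, against wdr12 GFP- cells and 3.24 ± 0.42 (adjusted p = 6.29e-05) against ebf3 GFP+ cells, and both calls passed in every fit that left out 1 library.

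The wdr12 GFP+ libraries were not alike in the synaptic genes. Of the 76 genes called lower against at least 1 control, replicate 3 had the highest wdr12 GFP+ level in 69 and replicate 1 the lowest in 59. Of all genes tested, replicate 3 was the highest of the 3 for 36.1% and replicate 1 the lowest for 42.6%. The median log2 ratio of replicate 3 to replicate 1 was 1.58 over these 76 genes, against 0.15 over all genes tested. For snap25a, for example, replicates 1, 2 and 3 had 27.3, 47.6 and 141 CPM. The 12 genes called higher did not share this order: replicate 1 was highest in 6, replicate 2 in 1 and replicate 3 in 5. In the same libraries replicate 3 was highest for 17 of 19 neuron markers and lowest for 19 of 23 cycling progenitor markers, and the part of these markers in the spread was not tested. In the sum over all 92 genes replicate 3 had 3461 CPM, below the lowest control library at 6321 CPM.

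In the fit of all 8 libraries, synaptic genes were called between the controls about as often as all genes tested and less often than genes with a symbol. Fitting only the control libraries, and the authors' deposited table, gave more higher calls, as given below. With all 8 libraries, 4 rose and 2 fell in wdr12 GFP- cells against ebf3 GFP+ cells, where 3.16% of all genes tested rose and 1.96% fell. These shares are close to the 4.35% and 2.17% of the synaptic genes. Of genes with a symbol 9.27% rose and 6.18% fell. The median log2 difference of the synaptic genes was 0.47, against 0.01 over all genes and 0.19 over genes with a symbol. Both wdr12 GFP- libraries lay above all ebf3 GFP+ libraries for 49 genes and below them for 7, where 21.9% and 19.5% of all genes tested did so and 37.2% and 29.1% of genes with a symbol. The number called depended on the fit, with 21 higher when only the libraries of these groups were fitted, 0 to 10 higher and 0 to 2 lower over the fits that left out 1 library, and none of the 6 passing in all of those. Among all genes tested, 852 of 14106 were higher when only these groups were fitted. Over fits that left out a wdr12 GFP+ or ebf3 GFP+ library, 213 to 753 were higher and 84 to 576 lower. The authors' deposited table of this comparison had 20 of the 92 genes higher and 3 lower in wdr12 GFP- cells, where 5.88% of all its genes were higher and 6.14% lower. The sheets that gave the symbols include genes called changed in this comparison as well.

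The genes higher in wdr12 GFP- cells were SYTL1, described above, with sypl2b, RAB37 and stxbp2. Their log2 fold changes were 2.08 ± 0.45 (adjusted p = 0.0147) for sypl2b, 1.80 ± 0.42 (adjusted p = 0.0214) for RAB37 and 1.43 ± 0.39 (adjusted p = 0.0434) for stxbp2. The lower genes were syt9b and NXPH3, with -1.56 ± 0.38 (adjusted p = 0.0276) and -1.65 ± 0.45 (adjusted p = 0.0463). The call of SYTL1 was lost without wdr12 GFP- replicate 2 (adjusted p up to 0.0737). The 5 others were lost without either wdr12 GFP- replicate and without ebf3 replicate 1, and all of these but RAB37 also without ebf3 replicate 2. For these 5 the adjusted p without 1 library reached 0.113 for sypl2b, 0.164 for RAB37, 0.309 for stxbp2, 0.293 for syt9b and 0.401 for NXPH3. In this comparison 10 of 13 erythrocyte, 9 of 12 microglia and 7 of 10 oligodendrocyte markers were higher in wdr12 GFP- cells. Of all genes tested 3.16% were higher, and of genes with a symbol, from which these markers were drawn, 9.27%. The part of erythrocytes, microglia and oligodendrocytes in the calls of synaptic genes was not tested. For the fusion gene snap25a the value was 1.06 ± 0.48 (adjusted p = 0.243), and for the vesicle gene syngr3a it was -0.67 ± 0.34 (adjusted p = 0.313), and neither passed.

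Genes of the same pathways that the name patterns did not take in were counted from 5 further lists, also among genes with a symbol. Against wdr12 GFP- cells, 8 of 12 endocytosis genes fell and 1 rose, 16 of 19 genes of the vesicle membrane and its acidification fell and 1 rose, and 11 of 11 further active zone and priming genes fell. Of other adhesion genes 26 of 31 fell and 1 rose, and of other postsynaptic scaffold genes 16 of 22 fell and 2 rose. Relative to ebf3 GFP+ cells the numbers were 7 lower and 2 higher, 14 and 3, 10 and 0, 28 and 0, and 14 and 1 in the same order of lists. The medians against wdr12 GFP- cells were -1.77, -2.28, -2.31, -2.10 and -2.22, beside -2.21 for the synaptic genes described above. Of genes with a symbol, 30.7% fell against wdr12 GFP- cells and 31.8% against ebf3 GFP+ cells. Of all genes tested 9.84% and 10.8% did. The lists were written with earlier results of these data known, so nothing is read from the likeness of the medians.

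The genes named from each list are those with its smallest p-values against wdr12 GFP- cells, and their levels are means ± SD (n = 3 wdr12 GFP+ and n = 2 wdr12 GFP- libraries). Amphiphysin, amph, which recruits dynamin to the neck of a vesicle, averaged 28.2 ± 13.4 CPM in wdr12 GFP+ cells and 184 ± 7.65 CPM in wdr12 GFP- cells, a log2 fold change of -2.70 ± 0.36, adjusted p = 0.000165. Endophilin, sh3gl2, averaged 19.1 ± 13.7 CPM in wdr12 GFP+ cells and 172 ± 5.85 CPM in wdr12 GFP- cells (-3.17 ± 0.44, adjusted p = 0.000195). SYNPR (1 of 2), for the vesicle membrane protein synaptoporin, averaged 8.85 ± 0.378 CPM in wdr12 GFP+ cells and 61 ± 8.13 CPM in wdr12 GFP- cells (-2.78 ± 0.33, adjusted p = 7.81e-05). The proton pump subunit gene ATP6V0C (2 of 2), which fills vesicles with acid, averaged 80.3 ± 26.2 CPM in wdr12 GFP+ cells and 527 ± 29.9 CPM in wdr12 GFP- cells (-2.71 ± 0.32, adjusted p = 8.47e-05). All were lower in wdr12 GFP+ cells.

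From the active zone list, lin7b, for a small scaffold protein that binds CASK, averaged 61 ± 15.8 CPM in wdr12 GFP+ cells and 303 ± 28.8 CPM in wdr12 GFP- cells (-2.31 ± 0.31, adjusted p = 0.000167). The liprin gene ppfia3, of the active zone, averaged 50.3 ± 32.4 CPM in wdr12 GFP+ cells and 304 ± 26.3 CPM in wdr12 GFP- cells (-2.60 ± 0.41, adjusted p = 0.000489). Of the adhesion genes, SLITRK4 averaged 15.6 ± 3.42 CPM in wdr12 GFP+ cells and 102 ± 7.04 CPM in wdr12 GFP- cells (-2.71 ± 0.30, adjusted p = 6.39e-05). LRFN2 (2 of 2), of the SALM family, averaged 20 ± 8.14 CPM in wdr12 GFP+ cells and 140 ± 29.1 CPM in wdr12 GFP- cells (-2.82 ± 0.35, adjusted p = 0.000119). The adhesion gene NPTN (1 of 2), for neuroplastin, averaged 20.4 ± 14.9 CPM in wdr12 GFP+ cells and 211 ± 18.5 CPM in wdr12 GFP- cells (-3.37 ± 0.46, adjusted p = 0.000176). The kinase gene camk2d2, of the CaMKII family that acts at synapses, averaged 39.6 ± 9.95 CPM in wdr12 GFP+ cells and 201 ± 4.14 CPM in wdr12 GFP- cells (-2.34 ± 0.30, adjusted p = 0.000127). These also were lower. The genes that rose in the postsynaptic list were lzts1, which averaged 81.4 ± 25.8 CPM in wdr12 GFP+ cells and 9.26 ± 1.72 CPM in wdr12 GFP- cells (3.13 ± 0.42, adjusted p = 0.000165), and MPDZ, a scaffold also found at epithelial junctions, which averaged 57 ± 14.1 CPM in wdr12 GFP+ cells and 7.31 ± 1.35 CPM in wdr12 GFP- cells (2.96 ± 0.43, adjusted p = 0.000256). The lists were again drawn from genes the authors had listed as changed.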

How the data were processed

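RNA of sorted optic tectum cells was sequenced in 8 libraries, each made from 4 ng of RNA and read from a single end for 50 bases, per the labels' protocols. Per the submitters' processing notes the tools were CASAVA 1.8.2, FastQC 0.10.1, TopHat2 and DESeq. For the read counter and its strand setting, the genome build and the annotation, the labels and headers used here give no name. The deposited tables hold raw counts per gene, per the file headers, and the authors' log2 fold change and adjusted p-value for each comparison. Another 68 columns of per-sample values, repeats in lists and in a table of the ebf3 line, were not used. The 3 comparison tables were joined on the gene ID, and the 131234 counts present in more than 1 table were equal. Names of genes were read from the authors' sheets of genes called changed, in which 4662 of 5043 had a symbol.

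Counts of all 8 libraries were fitted together with edgeR 4.0.16 (R 4.3.3), with TMM scaling, the default low-count filter and a two-sided quasi-likelihood F test for each comparison. P-values were adjusted by the Benjamini-Hochberg method over the 15640 genes tested, and a gene was called at an adjusted p under 0.05. The SE is the log2 fold change over the square root of F, and the common biological coefficient of variation was 0.514. Alternatives were DESeq2 1.42.0, other scalings, no filter, fits of only the groups compared, a replicate block and each library left out in turn. On simulated counts, changes of 4-fold were recovered for 44.1% of genes in wdr12 GFP+ against wdr12 GFP- cells, 43.9% in wdr12 GFP+ against ebf3 GFP+ cells and 43.3% in wdr12 GFP- against ebf3 GFP+ cells, and changes of 2-fold for 2.2%, 8.3% and 8.2% in the same comparisons. The simulations held few changed genes and gave 46 to 53 calls. The data gave 1551 higher and 1539 lower calls in wdr12 GFP+ against wdr12 GFP- cells. In wdr12 GFP- against ebf3 GFP+ cells they gave 494 higher and 307 lower calls. Adjustment was therefore stricter in the simulations, and their shares do not carry over to any of these comparisons.

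The genes, the roles and the lists were chosen with earlier results of these data known. Genes described with every library's value were, for each role, the 3 with the smallest p in each comparison of wdr12 GFP+ cells among those with a mean of at least 5 CPM, every gene called higher in wdr12 GFP+ cells, and every gene called between the controls. A pair of genes that met this rule is not reported here, though the counts and sums include them. Others, such as stx6, RIMS4 and NXPH4, were named after their values were seen. Of each further pathway list the 2 or 3 genes with the smallest p against wdr12 GFP- cells were named.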

Additional observations from a re-analysis of the deposited data

How the results depend on the processing

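The number of synaptic genes called lower in wdr12 GFP+ cells was 73 against wdr12 GFP- cells and ranged from 40 to 77 over fits that left out 1 library, being lowest without either of the GFP- libraries. Calls among all genes tested were also fewest in those fits, each of which left 1 library in the GFP- group. Over the other fits that left out 1 library, 1401 to 1832 of all genes tested were lower, beside 1539 in the main fit. Against ebf3 GFP+ cells the number of synaptic genes called lower was 57 and ranged from 47 to 71. Of all genes tested 1688 were lower there, with a range of 1251 to 1852. The number called higher was 4 against wdr12 GFP- cells, with a range of 1 to 4 on leaving out 1 library and 2 with upper quartile scaling. In the comparison with ebf3 GFP+ cells it was 11, with a range of 8 to 11. In wdr12 GFP- against ebf3 GFP+ cells the number called higher was 4, with 7 under DESeq2's Wald test, 21 when only these groups were fitted, 11 with the replicate block and 0 to 10 on leaving out 1 library, and the number called lower was 2, with 1 under upper quartile scaling, 4 under DESeq2's Wald test and 0 to 2 on leaving out 1 library. The cause was not tested. The 494 genes called higher there among all genes tested became 852 when only these groups were fitted, over fewer genes, and 819 with the replicate block. Same-numbered libraries deviated from their group means with correlations of -0.185 and -0.223 between the wdr12 sorts and of 0.221, -0.143 and 0.014 between the GFP+ sorts. Different-numbered libraries of the GFP+ sorts had -0.252 to 0.275. Deviations of the 2 GFP- libraries mirror each other, so their values cannot show whether replicate numbers pair the wdr12 sorts. With the replicate block, 72 and 64 synaptic genes were lower in wdr12 GFP+ cells against wdr12 GFP- and ebf3 GFP+ cells. Of the 15640 genes tested, 1644 and 1743 were lower in that fit.

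No called gene changed sign under any alternative. The log2 fold change of RAB31 in wdr12 GFP+ against wdr12 GFP- cells, not called at -0.21, ranged from -0.87 to 0.30 on leaving out 1 library and was 0.01 without wdr12 GFP+ replicate 2. That of SYTL1, not called at -0.13, ranged from -0.49 to 0.15 and was 0.12 without wdr12 GFP+ replicate 2. In wdr12 GFP- against ebf3 GFP+ cells 23 of the 86 uncalled genes changed sign in some fit, from values of at most 0.86, and single values of that comparison were therefore kept only for the called genes, snap25a and syngr3a, a choice made after seeing the data. Groups had 2 or 3 libraries, and genes such as RIMS4 and stx1a had few counts. Changes of about 2-fold were called in some genes and missed in others, for reasons that were not tested. For example, NAPB at -0.99 against wdr12 GFP- cells and RIMS1 (2 of 2) at -1.01 against ebf3 GFP+ cells were called. RAB3A (2 of 2) at -1.05 against ebf3 GFP+ cells was not.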
